A study of Saccharomyces cerevisiae with 6 samples.

Results

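The 38 genes described here code for nuclear-encoded subunits of respiratory complexes III and IV and of the mitochondrial ATP synthase of Saccharomyces cerevisiae, though not for every such subunit. They also code for both cytochrome c isoforms and for the HAP regulators of respiratory genes. They were listed by gene symbol, and each was taken on its brightest probe set that the platform annotation assigns to exactly 1 gene. All 38 were measured, among 5449 S. cerevisiae genes in all. They are 9 genes of complex III, 2 of cytochrome c, 9 of complex IV, 13 of ATP synthase and 5 HAP regulators. The arrays carried RNA from 3 samples of a strain lacking GCR2 and from 3 samples of the wild-type strain FY4. Cells of both kinds were taken from exponential batch growth on glucose in minimal medium at 30 °C. For the deletion samples the labels record the genotype but not the parent strain, so whether it shares the FY4 background is not known here. Whether replicates were separate cultures is not recorded either, and the p-values then reflect the variation between these RNA samples, possibly of technical origin.

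Complex III passes electrons from ubiquinol to cytochrome c, and complex IV passes them from cytochrome c to oxygen. Both pump protons across the inner mitochondrial membrane, and ATP synthase uses the resulting gradient to make ATP. In yeast the genes of this chain are repressed by glucose. The Hap2, Hap3 and Hap5 proteins bind CCAAT boxes in the promoters of many of them, and Hap4 supplies the activation domain of that complex. HAP4 transcription is itself repressed by glucose and is regarded as limiting for the complex. Hap1 is a separate, heme-dependent activator of genes used in the presence of oxygen; in the S288C lineage, from which FY4 derives, its gene carries a Ty1 insertion that lowers its activity. Gcr2 acts with Gcr1 as an activator of glycolytic genes. Tests of the deletion against the wild type ask which of these respiratory transcripts differ between these samples during growth on glucose. Since the parent strain is not recorded, loss of GCR2 cannot be told apart from other strain differences.

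GCR2 was below background on all 3 deletion arrays and at 11.11 ± 0.05 on the wild-type arrays (log2 intensity, SD, n = 3), a deficit of at least 27.5-fold. On the first principal component of the 6 arrays, wild-type replicate 3 and deletion replicate 1 lay furthest from the other group. Values without these 2 arrays are given where they matter. That component separates the groups, so a place at its end does not mark an array as faulty. On the second component deletion replicate 2 stood apart, at -6.4 against 0.5 and 1.1 for the other deletion arrays. Of all genes tested, 22.5% were called by limma at an adjusted p under 0.05, 14.1% higher and 8.35% lower in the deletion, and their median log2 difference was 0.02. All values are relative to the bulk of each array. On the log2 scale, deletion minus wild type was -0.88 for the poly-A spike-in controls, -1.15 for 18S and -1.499 for 25S ribosomal RNA; their part in the results was not tested. Centring each array on the spike-ins moved the median of all genes to 0.90. Array values are of RNA from whole cultures, so fewer cells holding a transcript and less of it per cell cannot be told apart.

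Among the members, 3 of 38 (RIP1, HAP2 and HAP4) passed the test, against the 22.5% of all genes. RIP1 and HAP2 rose and HAP4 fell. The subunit and cytochrome c genes gave 1 call in 33, and their median log2 difference was 0.06. Of the 5 HAP regulators 2 were called, in opposite directions. The groups did not overlap for 13 of the 38 members, 11 of them higher and 2 lower in the deletion; across all genes the groups did not overlap for 45.2%, 27.1% higher and 18.1% lower. All 38 members were above background on all 6 arrays.

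HAP4 showed the lowest log2 difference of the members. Its log2 intensity was 11.54, 11.91 and 11.90 on the deletion arrays, against 12.39, 12.45 and 12.37 on the wild-type arrays. All 3 deletion arrays lay below all 3 wild-type arrays, and deletion replicate 1 was the lowest. HAP4 fell by 0.62 (SE 0.11, 95% interval -0.88 to -0.36, limma adjusted p = 0.0135), which is 0.651 of the wild-type level. Without deletion replicate 1 the fall was 0.50, and without both deletion replicate 1 and wild-type replicate 3 it was 0.51 (limma adjusted p = 0.022). HAP4 was called lower in 15 of 15 alternative fits at this threshold that kept the authors' scaling or changed it over the tested genes; centred on the spike-in controls its difference was 0.26 and not called, and it was not called at an adjusted p under 0.01.

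The genes for the DNA-binding partners lay on the other side. HAP2 was at 10.32, 10.26 and 10.38 in the deletion, against 10.06, 10.13 and 9.88 in the wild type. It rose by 0.30 (SE 0.07, limma adjusted p = 0.034), with wild-type replicate 3 the lowest array. That call was lost in 6 of 15 alternative fits, among them the fit without wild-type replicate 1 and each fit without a deletion replicate.

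HAP3 was at 10.61, 10.39 and 10.57 in the deletion, against 10.15, 10.18 and 9.67 in the wild type. Its groups did not overlap, and the low wild-type value was again replicate 3. The log2 difference of 0.52 (SE 0.15) just missed the threshold (limma adjusted p = 0.0505). Without wild-type replicate 3 the difference was 0.36 and was called (limma adjusted p = 0.034). HAP5 was at 10.001, 10.034 and 10.104 in the deletion, against 9.824, 9.906 and 9.673 in the wild type, again without overlap. Its difference of 0.25 (SE 0.07) also missed the threshold (limma adjusted p = 0.0513). HAP3 was called higher in 8 and HAP5 in 5 of 15 alternative fits.

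HAP1 was at 11.97, 12.01 and 11.97 in the deletion, against 11.81, 11.83 and 11.98 in the wild type. The groups overlapped through wild-type replicate 3, and the difference of 0.11 was not called (limma adjusted p = 0.20); without that array it was 0.16 and called (limma adjusted p = 0.048). For the HAP2/3/4/5 complex a quantity that no scaling of whole arrays can move is HAP4 minus the mean of HAP2, HAP3 and HAP5 within each array, chosen after their values were seen. It was 1.23, 1.69 and 1.54 in the deletion, against 2.38, 2.37 and 2.62 in the wild type, a difference of -0.98. The groups had to separate in this quantity, since HAP4 and its partners each separated them in opposite directions, so it adds only the size of the gap.

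**Figure D1:**
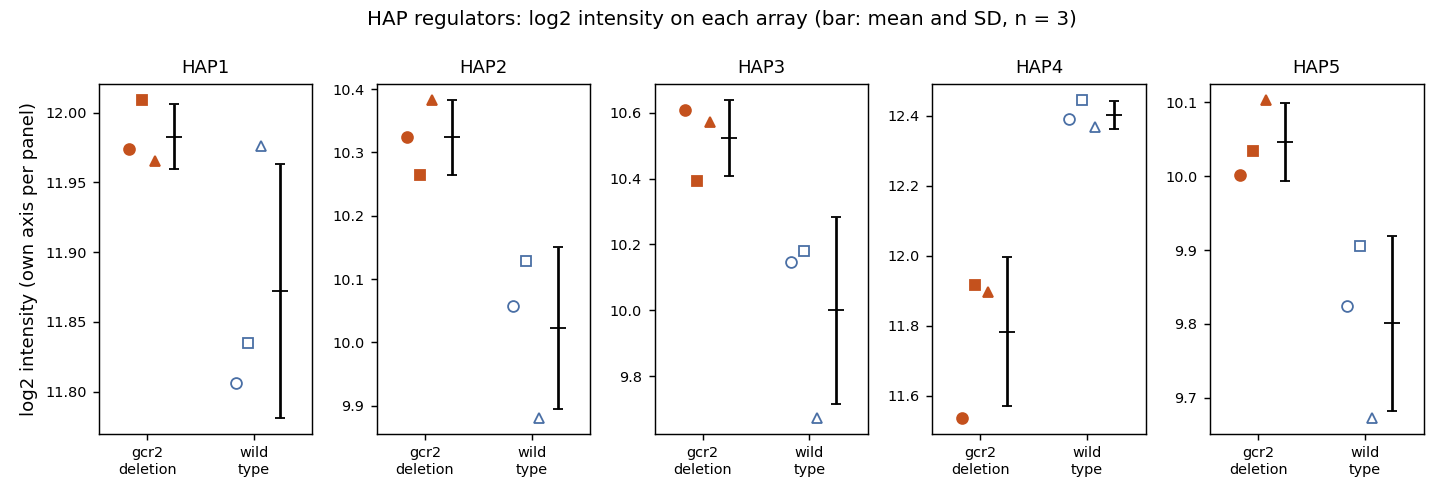
Log2 intensity of the 5 HAP regulator genes on each array, with gcr2 deletion arrays (filled) left of wild-type arrays (open), circles, squares and triangles for replicates 1, 2 and 3, and the mean and SD beside them (n = 3); each panel has its own axis. HAP4 is lower on all 3 deletion arrays, HAP2, HAP3 and HAP5 are higher on all 3, and the HAP1 groups overlap.

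In complex III 1 of 9 genes was called, and the median log2 difference was 0.13. The changes ran between -0.04 (QCR7) and 0.26 (QCR2). The call was RIP1, the gene of the Rieske iron-sulfur protein, which takes electrons from ubiquinol. RIP1 was at 12.65, 12.69 and 12.71 in the deletion, against 12.42, 12.55 and 12.35 in the wild type. It rose by 0.24 (SE 0.06, limma adjusted p = 0.035), a call lost in 7 of 15 alternative fits; without wild-type replicate 3 the difference was 0.20 (limma adjusted p = 0.065).

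RIP1 is also one of the array's built-in control genes, so separate control probe sets read its 5′, middle and 3′ parts on the same arrays. The 5′ part was at 12.41, 12.48 and 12.45 in the deletion, against 12.16, 12.29 and 12.16 in the wild type. The differences were 0.24 for the 5′ part, 0.24 for the middle and 0.17 for the 3′ part, beside 0.24 for the gene's own probe set. Deletion arrays lay above wild-type arrays for each of the 4 probe sets. An exact two-sided permutation test gave p = 0.1 for each, the smallest that 3 against 3 arrays allow. These probe sets share the RNA of each array and are repeat readings, not replicates. The 3′ part minus the 5′ part, a sign of RNA integrity, was 0.02, 0.002 and -0.01 in the deletion, against 0.05, 0.08 and 0.10 in the wild type. The 8 control genes with such probe sets gave no common direction: RIP1 and URA3 were lower on every deletion array, SRB4 and WBP1 were higher on every deletion array, and the groups overlapped for ACT1, TDH1, SPT15 and EAF5.

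**Figure D2:**
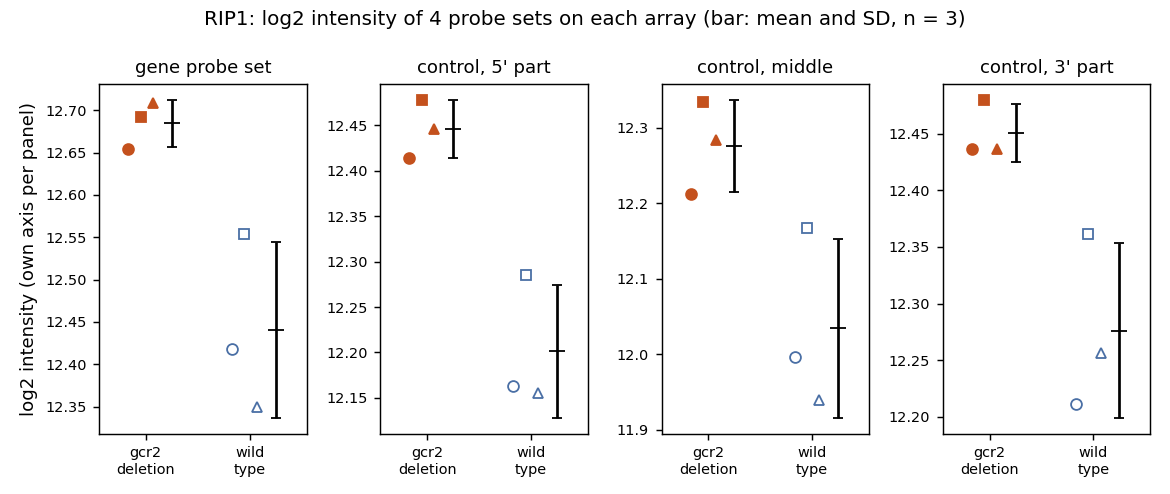
Log2 intensity of RIP1 on each array from its gene probe set and from 3 control probe sets for the 5′, middle and 3′ parts, with gcr2 deletion arrays (filled) left of wild-type arrays (open) and the mean and SD beside them (n = 3); each panel has its own axis. The deletion arrays lie above the wild-type arrays in every panel, by 0.17 to 0.24 on the log2 scale.

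QCR2 and COR1 code for the pair of core proteins of complex III. QCR2 was at 13.29, 13.04 and 13.09 in the deletion, against 12.92, 12.84 and 12.88 in the wild type. The groups did not overlap, deletion replicate 1 was the highest, and the difference of 0.26 (SE 0.07) was not called (limma adjusted p = 0.0505). COR1 differed by -0.03 (95% interval -0.15 to 0.09), with overlapping groups. CYT1, the gene of cytochrome c1, which hands electrons to cytochrome c, was at 13.05, 13.08 and 13.02 in the deletion, against 12.98, 12.85 and 12.91 in the wild type; its difference of 0.13 was not called (limma adjusted p = 0.090).

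The smaller accessory subunits of complex III did not separate the groups. QCR6 differed by 0.13, QCR8 by 0.05 and QCR10 by 0.14, and QCR7 and QCR9 by -0.04 and -0.03. For all 9 genes of complex III the whole 95% interval lay within 1.5-fold either way, that is within 0.58 on the log2 scale. The complex's median depended on wild-type replicate 3: without that array it was 0.01, and with the length trend described below removed it was 0.05.

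Cytochrome c carries electrons between complexes III and IV. CYC1, its main isoform in the presence of oxygen and a textbook target of Hap1 and of the HAP2/3/4/5 complex, was at 12.13, 12.01 and 12.12 in the deletion, against 11.76, 11.66 and 10.94 in the wild type. The groups did not overlap, and wild-type replicate 3 stood apart. CYC1 had the highest log2 difference of the members, 0.63 (SE 0.21), and was not called with all arrays (limma adjusted p = 0.081). Without wild-type replicate 3 the difference was smaller, 0.38, and was called (limma adjusted p = 0.0196).

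CYC7, the isoform favoured at low oxygen, was at 8.76, 9.54 and 9.61 in the deletion, against 9.05, 10.33 and 9.30 in the wild type. Its arrays varied widely in both groups, and the difference of -0.25 had a 95% interval of -1.19 to 0.69. The log2 ratio of CYC1 over CYC7 within each array was 3.37, 2.46 and 2.52 in the deletion, against 2.71, 1.34 and 1.64 in the wild type. These overlapped, with a difference of 0.89 (exact two-sided permutation p = 0.3, also 0.3 adjusted over the 2 isoform pairs tested).

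In complex IV none of 9 genes was called by limma, and none had an unadjusted p under 0.05, against 2093 of all 5449 genes. The median log2 difference was 0.12 with all arrays and -0.01 without wild-type replicate 3. COX5A and COX5B code for interchangeable forms of subunit 5, used at high and at low oxygen. COX5A was at 12.9391, 12.9945 and 13.0026 in the deletion, against 12.8522, 12.9386 and 12.638 in the wild type. Deletion replicate 1 and wild-type replicate 2 were practically equal, so the groups barely failed to overlap, and the difference of 0.17 was not called (limma adjusted p = 0.18). COX5B was at 11.14, 11.32 and 11.39 in the deletion, against 11.40, 11.92 and 11.15 in the wild type. Its groups overlapped and its difference was -0.21 (limma adjusted p = 0.47).

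The log2 ratio of COX5A over COX5B was 1.80, 1.67 and 1.61 in the deletion, against 1.449, 1.022 and 1.489 in the wild type. All 3 deletion ratios lay above all 3 wild-type ratios, with a difference of 0.38 (exact two-sided permutation p = 0.1, the smallest possible, and 0.2 adjusted over both pairs). Without wild-type replicate 2, the array with the lowest ratio, the difference was 0.23. The ratio is free of any scaling of whole arrays, but it does not say which isoform moved.

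Of the other nuclear subunits of complex IV, COX4 differed by -0.02 (95% interval -0.16 to 0.12) and COX6 by 0.02 (-0.24 to 0.29). COX8, COX12 and COX13 differed by 0.24, 0.18 and 0.12. COX7 and COX9, 2 very small subunits, differed by -0.04 and 0.31 with intervals of -0.82 to 0.74 and -0.51 to 1.13. COX9 was at 12.49, 12.30 and 12.70 in the deletion, against 12.45, 12.71 and 11.40 in the wild type, so its positive difference came from wild-type replicate 3; without that array it was -0.08.

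ATP synthase gave no call among 13 genes by limma, and 3 had an unadjusted p under 0.05, against 2093 of all 5449 genes. The median log2 difference was 0.06. That median was 0.04 without deletion replicate 3, 0.18 without wild-type replicate 2 and 0.0068 without wild-type replicate 3. The alpha and beta subunits form the catalytic head. ATP1, the alpha subunit, was at 14.33, 14.42 and 14.36 in the deletion, against 14.35, 14.33 and 14.40 in the wild type, a difference of 0.01 (95% interval -0.09 to 0.12). ATP2, the catalytic beta subunit, was at 14.55, 14.30 and 14.33 in the deletion, against 14.21 on each of the wild-type arrays. Its groups did not overlap, with deletion replicate 1 apart, and the difference of 0.18 was not called (limma adjusted p = 0.11). ATP3, the gamma subunit of the central stalk, and ATP16, its delta subunit, differed by 0.06 and 0.05.

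The stator connects the head to the membrane part. Its genes went to both sides without a call. ATP4, subunit b, was at 13.2038, 13.3701 and 13.2875 in the deletion, against 13.3726, 13.3722 and 13.4341 in the wild type. Besides HAP4 it was the member whose deletion arrays all lay lower, but deletion replicate 2 practically equalled the lower wild-type arrays (difference -0.11, limma adjusted p = 0.21). ATP5, the oligomycin-sensitivity subunit, differed by 0.03 (95% interval -0.06 to 0.13). ATP7, subunit d, was at 12.997, 13.076 and 13.037 in the deletion, against 12.796, 12.908 and 12.649 in the wild type. Its difference of 0.25 (SE 0.07) did not pass (limma adjusted p = 0.053) and was called in 5 of 15 alternative fits. ATP14, subunit h, was at 12.66, 12.73 and 12.73 in the deletion, against 12.50, 12.58 and 12.27 in the wild type, a difference of 0.25 (limma adjusted p = 0.078).

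ATP17, ATP20 and TIM11, subunits of the membrane part, differed by -0.08, 0.06 and 0.05, with overlapping groups. ATP15 and ATP18 were the least certain. ATP15, the epsilon subunit of the central stalk, was at 12.19, 11.37 and 12.13 in the deletion, against 12.41, 12.27 and 10.82 in the wild type. ATP18 was at 11.77, 10.87 and 11.66 in the deletion, against 11.95, 11.62 and 10.22 in the wild type. Both dipped on deletion replicate 2 and on wild-type replicate 3. Their differences, 0.06 and 0.17, turned to -0.44 and -0.35 without wild-type replicate 3.

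**Figure D3:**
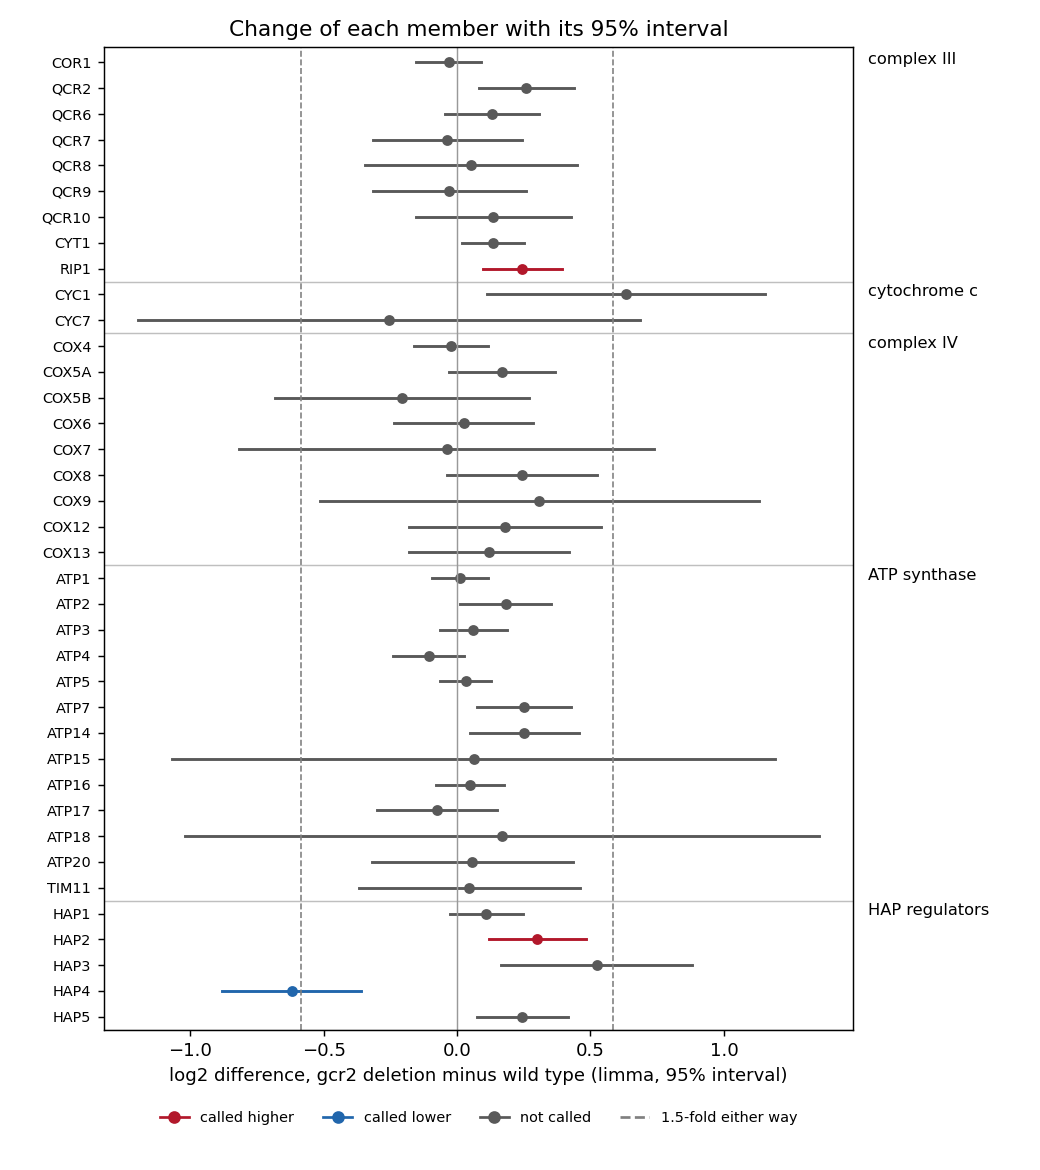
Log2 difference of each member, gcr2 deletion minus wild type, with limma's 95% interval, grouped by complex; dashed lines mark 1.5-fold either way, and colour marks genes called at an adjusted p under 0.05. RIP1 and HAP2 are called higher and HAP4 lower, and the widest intervals are those of ATP18, ATP15, CYC7, COX9 and COX7.

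The intervals say what size of change these arrays leave possible for each gene taken alone. They were not adjusted for the number of genes. Of the 32 subunit and cytochrome c genes that were not called, 25 had a whole 95% interval within 1.5-fold either way. The other 7 were CYC1, CYC7, COX5B, COX7, COX9, ATP15 and ATP18, for which a larger change in at least 1 direction is left within the interval. Over all 38 members the count was 29, and across all genes 84.6% had such an interval. Without wild-type replicate 3 it was 32 of 38.

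**Figure D4:**
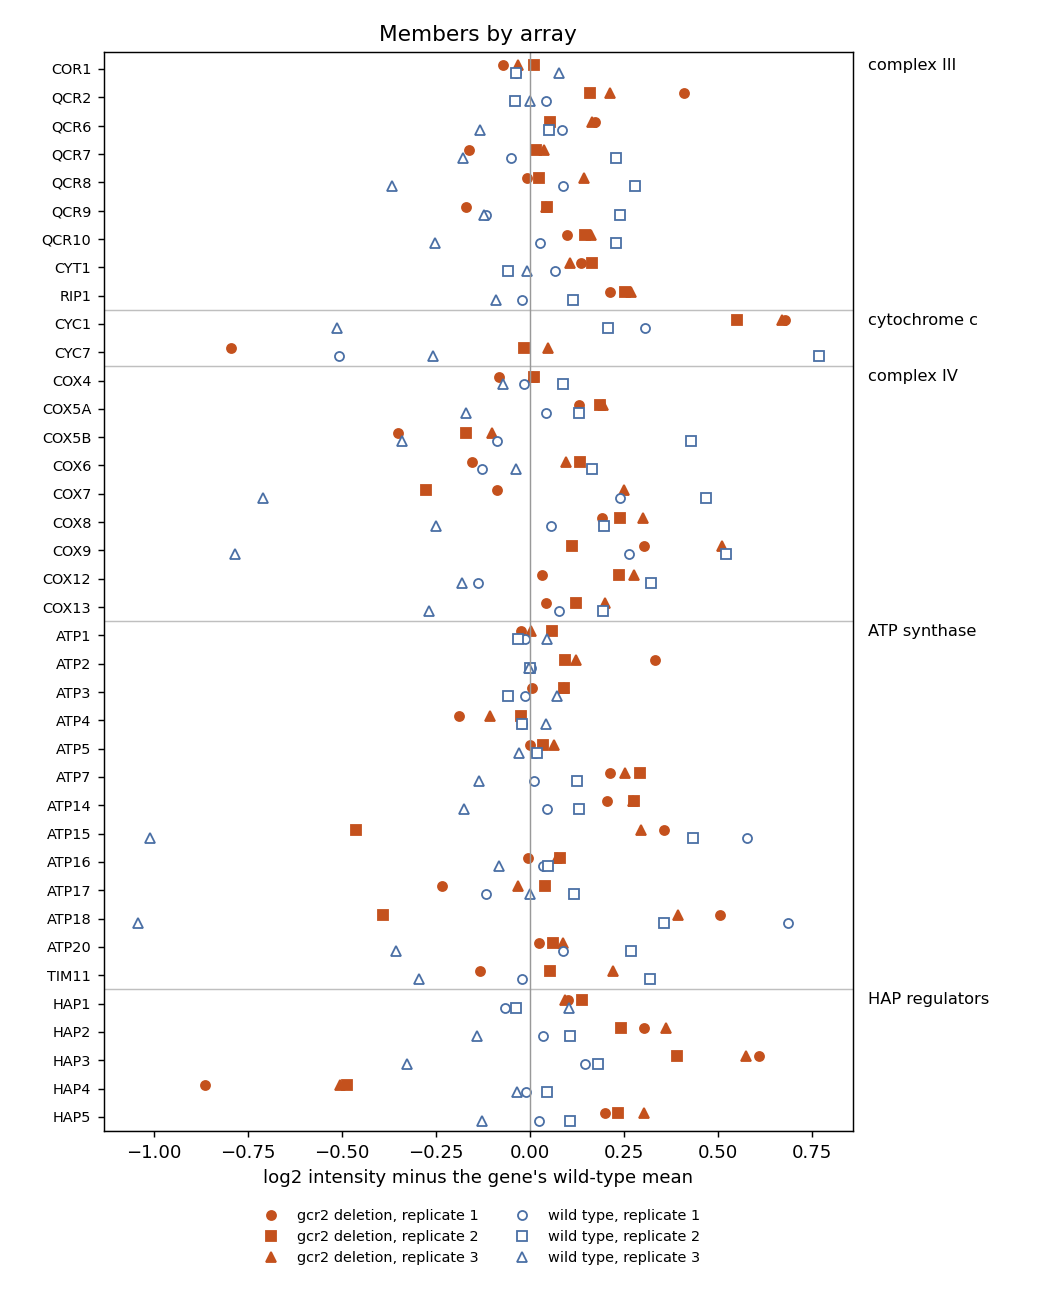
Log2 intensity of each member on each array minus the gene's wild-type mean, with gcr2 deletion arrays (filled, upper in each row) and wild-type arrays (open), and circles, squares and triangles for replicates 1, 2 and 3. The wild-type arrays spread more than the deletion arrays for 30 of 38 members (72.3% of all genes). Replicate 3 was the lowest wild-type array in 28 of 38 (37.1% of all genes) and replicate 2 the highest in 26 of 38 (39.3%).

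The spread between wild-type arrays was wider for shorter genes, among the members and among the other genes. The median wild-type SD of members up to 300 bases was 0.33, beside 0.28 for other genes of that length. Over 300 and up to 600 bases it was 0.18 for members, beside 0.22 for other genes. The wild-type SD was the larger one for 30 of 38 members, against 72.3% of all genes. Wild-type replicate 3 was the lowest wild-type array for 28 of 38 members, against 37.1% of all genes, and wild-type replicate 2 the highest for 26 of 38, against 39.3%. These shares of all genes were not matched for length. Gene lengths were available for all 38 members from the RefSeq annotation of assembly R64. Of all lengths there, 97.0% are multiples of 3, so most could be coding lengths. A multiple of 3 does not show that a length is free of introns, and COX5B, at 544 bases, is not such a multiple.

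Wild-type replicate 3 minus the mean of the other wild-type arrays was -1.56 for ATP18 (180 bases), -1.52 for ATP15 (189 bases), -1.18 for COX9 (180 bases) and -1.06 for COX7 (183 bases). For the long members it was -0.003 for ATP2 (1536 bases), 0.07 for ATP1 (1638 bases) and -0.05 for HAP4 (1665 bases). Across the 38 members Spearman's rho between length and this shift was 0.82, and between length and the wild-type SD it was -0.84; these points share the same 3 arrays and are not independent. Across the other 5411 genes, which were not matched to the members for length, the same rho values were 0.38 and -0.39. Between length and the deletion SD, rho was -0.45 across the members and -0.25 across the other genes.

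The 9 members of up to 300 bases had a median shift of -0.55 on wild-type replicate 3, and the 4 members over 1500 bases had 0.03. Other genes of the same lengths had -0.23 and 0.04. The 16 members over 300 and up to 600 bases had -0.26, beside -0.27 for other genes of that length. Among other genes 17.5% of those up to 300 bases were called, 11.1% of those over 300 and up to 600, and 23.6% of those over 1500. Of the members, 25 of 38 were at most 600 bases long and none of these was called. The difference between deletion and wild type itself ran with length little, with a rho of -0.09 across the members. With a smooth trend on length removed from every array, an alternative chosen after seeing the data, 8 members were called. HAP4 was again the single call lower, and HAP2, HAP3, HAP5, RIP1, CYC1, ATP7 and COX8 were called higher, beside 25.9% of all genes.

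**Figure D5:**
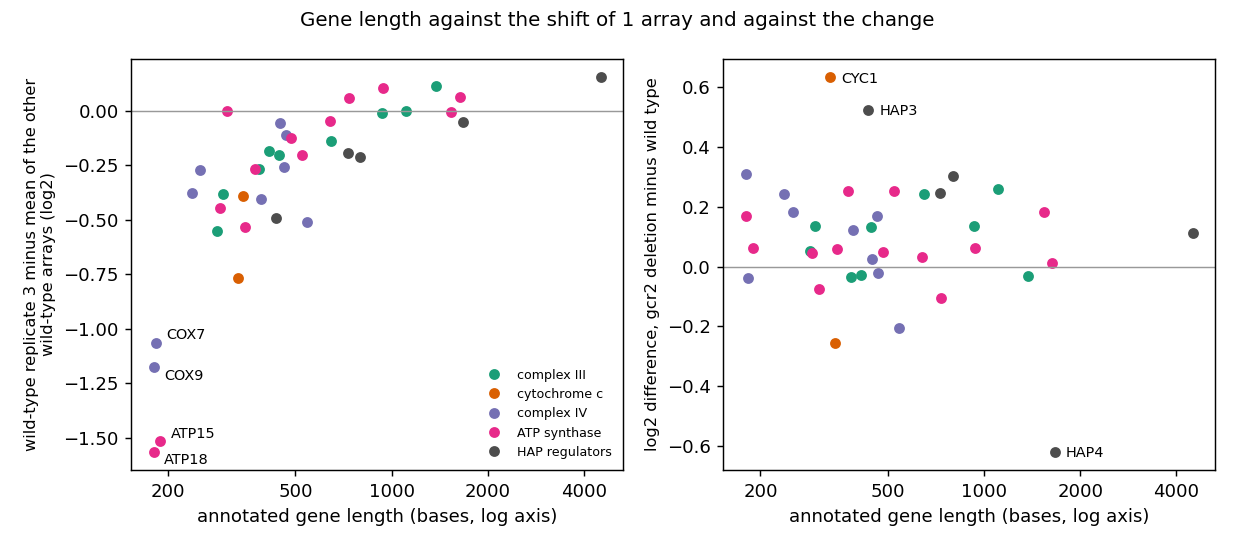
Annotated gene length of each member (bases, log axis) against the shift of wild-type replicate 3 from the mean of the other wild-type arrays (left) and against the log2 difference, gcr2 deletion minus wild type (right); colours mark the complexes. Short members sit far below 0 on the left, ATP18 at -1.56, whereas the right panel shows little slope.

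Genes that assemble or feed the same complexes were read beside the subunits. Of 96 measured genes in 8 such lists 28 were called, 15 higher and 13 lower, beside 22.5% of all genes called, 14.1% higher and 8.35% lower. The median log2 difference of the 96 was 0.02, as over all genes. Of the assembly and translation factors, 1 of 12 genes for complex III and cytochrome c, 4 of 29 for complex IV and 3 of 10 for ATP synthase were called lower and 0 higher; with so few calls, beside 8.35% of all genes lower, no direction of these lists was tested. PET122, which activates translation of the mitochondrial COX3 messenger, was at 10.24, 10.17 and 10.21 in the deletion, against 11.42, 11.11 and 11.38 in the wild type. It fell by 1.10 (SE 0.09, limma adjusted p = 0.0013) and was called in 15 of 15 alternative fits, which leave out centring on the spike-in controls.

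The other assembly calls were small. ATP12 and ATP11, chaperones of the alpha and beta subunits of ATP synthase, fell by 0.30 (limma adjusted p = 0.0098) and 0.25 (limma adjusted p = 0.013), while ATP1 and ATP2 did not pass. AEP2, needed for the mitochondrial ATP9 messenger, fell by 0.29. BCS1, which inserts the Rieske protein into complex III, fell by 0.33 (limma adjusted p = 0.025). COX10 and COX11, which serve the heme A and copper centres of complex IV, fell by 0.25 and 0.17, and MSS51, a COX1 translation factor, by 0.15.

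Of 6 measured subunits and inhibitors that the member list left out, RCF2, a factor associated with complex IV, rose by 0.48 (SE 0.08, limma adjusted p = 0.011). The other 5 did not pass. In heme synthesis 3 of 8 genes rose, HEM12 by 0.27, HEM1, the first enzyme of the pathway, by 0.21 and HEM13 by 0.14.

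Enzymes upstream of complex III went to both sides. Of 8 NADH and lactate dehydrogenase genes 2 rose and 3 fell. NDE1, an external NADH dehydrogenase, was at 12.06, 12.14 and 12.25 in the deletion, against 12.66, 12.73 and 12.57 in the wild type, and fell by 0.50 (limma adjusted p = 0.0066). GUT2, glycerol-3-phosphate dehydrogenase, fell by 0.43 and DLD1, D-lactate dehydrogenase, by 0.31, while CYB2, L-lactate dehydrogenase, rose by 0.40. In the tricarboxylic acid cycle 6 of 16 genes rose and 2 fell, with FUM1 up by 0.21, CIT1 by 0.25, KGD2 by 0.21 and LSC2 down by 0.31. Of 7 carrier genes 3 rose: PIC2, a mitochondrial phosphate and copper carrier, by 0.72 (SE 0.11, limma adjusted p = 0.00996), AAC3, an ADP/ATP carrier, by 0.28, and POR1, the outer membrane porin, by 0.17. The calls of PET122, NDE1, GUT2, DLD1 and PIC2 held in all 15 alternative fits. Centring on the spike-in controls, which moves every difference up by the same amount, was not among these fits. Those of HEM13, POR1 and COX11 were lost in 11, 10 and 9 of the 15 fits, and those of MSS51 and AAC3 in 8 each. COX10 lost its call in 7, HEM1 in 6, BCS1, CIT1 and KGD2 in 5 each, AEP2 and LSC2 in 4 each, ATP11, HEM12 and FUM1 in 3 each, RCF2 and CYB2 in 2 each, and ATP12 in 1. No probe set of the 7 mitochondrially encoded subunits was analysed here.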

How the data were processed

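The deposited table gives 1 linear intensity for each of 10928 probe sets on each array; per the submitters' processing notes the authors made them with R 2.8.0, affy and RMA. RMA gives all arrays the same intensity distribution, so a change in total messenger RNA is not visible. No source used here names the genome build of the probe sets. Intensities were converted to log2 without a pseudocount, and no dim gene was removed. Platform annotation gave 5498 probe sets a S. cerevisiae gene of the RefSeq R64 annotation, used for names and gene lengths, and the brightest per gene left 5449 genes. Background was the 95th percentile of 1746 probe sets annotated with 1 gene that had no match in that RefSeq annotation. These were taken to be of the other yeast species on the array, without a species label being read. Deletion was compared with wild type by limma 3.58.1 (R 4.3.3, lmFit and eBayes, no covariates), two-sided, with Benjamini-Hochberg adjustment over all 5449 genes and calls at an adjusted p under 0.05; the script was tested on simulated data. "Rose" and "fell" mark called genes. Isoform ratios were compared by exact permutation. With 3 arrays a group, 95% intervals reached 0.15 to either side of the log2 difference in the median over all genes, and 0.24 over the members. The members and lists were chosen with earlier results of these data known. Named genes are all members, GCR2, and up to 4 called genes of each other list with the smallest adjusted p. Same-numbered arrays did not all deviate together (correlations 0.53, -0.17 and -0.44), and differently numbered arrays gave -0.66 to 0.58. Numbers were therefore not taken to pair samples. Promoter motifs were planned and not run, since no sequences were used here.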

Additional observations from a re-analysis of the deposited data

How the results depend on the processing

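HAP4 kept its direction and its call in all 15 alternative fits given to each member at an adjusted p under 0.05, with log2 differences between -0.68 and -0.50; at an adjusted p under 0.01 the calls were 347 genes, 0 members higher and 0 lower. Members called higher numbered 2 in the main fit. There were 5 with median centring, dim genes removed or a trended robust prior, where 19.7%, 23.8% and 23.7% of genes tested were called. Array weights gave 8, beside 33.2% of genes, and removal of the length trend gave 7, beside 25.9%. These shares of genes count calls in either direction. With the replicate number as a block there were 0, where 733 genes were called in all. The numbers are not known to pair the samples. Leaving out each array in turn gave 406 to 1225 called genes, 0 to 7 members higher and 1 lower in every case, 26 to 32 members with an interval within 1.5-fold, and 8 to 26 calls in the other pathway lists, against 28 with all arrays. The 0 members higher came without deletion replicate 1, 2 or 3 (483, 543 and 406 genes called) or without wild-type replicate 1 (786 genes). Without wild-type replicate 2 there were 7 (1225 genes), and without wild-type replicate 3 there were 4 (1011 genes). Medians ranged over 0.0092 to 0.16 for complex III, -0.0035 to 0.43 for cytochrome c, -0.01 to 0.22 for complex IV, 0.0068 to 0.18 for ATP synthase and 0.18 to 0.30 for the HAP regulators, the ATP synthase value of 0.18 without wild-type replicate 2 and the complex III value of 0.0092 without wild-type replicate 3. The isoform ratio differences ranged over 0.59 to 1.29 for CYC1 over CYC7 and 0.23 to 0.46 for COX5A over COX5B. Without both deletion replicate 1 and wild-type replicate 3, chosen after seeing the data, 328 genes were called, 0 members higher, 1 lower and 5 genes of the other lists, and the median change of complex III was 0.0284; with the length trend removed it was 0.0545. Centring on the poly-A controls gave 4952 called genes, 37 members higher and 0 lower, and a median change of complex III of 1.01, a median change of cytochrome c of 1.06, a median change of complex IV of 0.997, and medians of 0.93 for ATP synthase and 1.12 for the HAP regulators. It adds the same 0.88 to the difference of every gene, so the sign changes of 10 members follow from that constant and say nothing particular of them: HAP4 to 0.26, COR1 to 0.84, QCR7 to 0.84, QCR9 to 0.85, CYC7 to 0.62, COX4 to 0.85, COX5B to 0.67, COX7 to 0.84, ATP4 to 0.77 and ATP17 to 0.80. The fits with fewer arrays have fewer samples; the cause of the other shifts was not tested. Short genes had the widest spread between wild-type arrays and also between deletion arrays. Up to 300 bases the median deletion SD was 0.18 for members and 0.17 for other genes. Over 1500 bases it was 0.09 and 0.05. This spread limits what can be said of ATP15, ATP18, COX7 and COX9.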
